A study of Oryza sativa with 18 samples.

Results

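The genes described here encode enzymes of the Calvin cycle and small subunits of Rubisco, followed across 6 groups of rice crown root samples. They are 10 genes of the 64687 listed in the count table, chosen by their locus identifiers: 3 RbcS genes on chromosome 12 and the genes of Rubisco activase, phosphoribulokinase (PRK), sedoheptulose-bisphosphatase (SBPase), fructose-bisphosphatase (FBPase), both subunits of plastid glyceraldehyde-phosphate dehydrogenase (GAPA and GAPB) and a plastid aldolase. All 10 passed the filter on low counts.

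The samples were tips of crown roots of the rice cultivar Kitaake, taken 6 h after treatment with 5 µM jasmonate (JA) or with DMSO as mock, and each sample pooled the tips of many plants grown in tubes under a day and night cycle. The oscoi2 plants carry deletions in OsCOI2, the oscoi1ab plants carry a deletion in each of OsCOI1a and OsCOI1b, and the WT plants are unedited Kitaake. Each edited genotype is 1 homozygous line, so an effect of the edited gene and a property of that line cannot be told apart. The 6 groups are oscoi2, oscoi1ab and WT plants, each after JA and under mock, with 3 independent samples per group and 18 libraries in all.

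The Calvin cycle fixes carbon dioxide in the stroma of the chloroplast. Rubisco joins carbon dioxide to ribulose bisphosphate, glyceraldehyde-phosphate dehydrogenase reduces the product to triose phosphate, and aldolase, the bisphosphatases and PRK rebuild the acceptor. The enzymes are nuclear-encoded apart from the large subunit of Rubisco, and their genes are known for high expression in green leaves. Most root plastids are not green, and these genes are usually low there. JA is perceived by COI receptor proteins, which target JAZ repressors for degradation, and jasmonates are known to lower RbcS transcripts in barley leaves.

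Library totals were 99657931 to 113672521 estimated counts, at an assumed 3.7 counts per read pair. OsCOI2 transcript stood at 22.3 to 28.6 CPM (counts scaled to a common library size) in the oscoi2 libraries, against 36.1 to 52.0 CPM in WT libraries, and OsCOI1a at 8.38 to 24.7 CPM in the oscoi1ab libraries, against 70.3 to 108.5 CPM in WT libraries. OsCOI1b stood at 103.3 to 118.0 CPM in oscoi1ab mock libraries, against 124.5 to 142.0 CPM in WT mock libraries, and at 82.2 to 89.1 CPM in oscoi1ab JA libraries, against 89.5 to 102.4 CPM in WT JA libraries. All 7 root marker genes were counted, and 1 of them was called in a response to JA, LOC_Os02g44310, lower in oscoi1ab (log2FC −1.10). The 7 together reached 5276 to 6111 CPM after JA and 5865 to 7116 CPM under mock in oscoi2, 3502 to 4168 CPM and 6153 to 7177 CPM in oscoi1ab, and 3346 to 4367 CPM and 5342 to 6018 CPM in WT. Their sum was thus lower after JA without overlap in oscoi1ab and WT and overlapped in oscoi2, and the part of this in the results below was not tested. The sum does not stand for each gene. The median log2FC of the 7 was −0.16 in WT, with values from −0.92 to 0.13. It was −0.28 in oscoi1ab (−1.10 to −0.03) and −0.19 in oscoi2 (−0.55 to 0.48). Of 8 genes that mark leaf or shoot tissue (YABBY genes, DL and OSH1), 4 were at 0 in every library, and the 8 together reached at most 0.95 CPM in any library. A bulk sample cannot tell fewer cells that express a gene from less RNA per cell.

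Most of the genes were lower in WT roots after JA. In the WT response, 6 of the 10 were called lower and none higher, where 6.56% of the 30907 genes tested were called lower. A gene is called at a false discovery rate (FDR) under 0.01 and a log2 fold change (log2FC) of at least 1 in size. The 6 are LOC_Os12g19381 and LOC_Os12g19470 (RbcS), GAPA, GAPB, the plastid aldolase and PRK. The other 4, Rubisco activase, SBPase, FBPase and the RbcS gene LOC_Os12g17600, had negative log2FC that did not pass the limit. The median log2FC of the 10 was −4.13, against −0.05 over all genes tested. It was −3.07 where a group at 0 is set at its detection limit and a gene under that limit in both groups is given a log2FC of 0. LOC_Os12g17600 was such a gene in WT and in oscoi2.

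The oscoi1ab roots gave the same 6 calls, where 8.15% of all genes were called lower. The median log2FC of the 10 was −3.86, or −3.50 with the detection limit used in the same way, against −0.03 over all genes. The oscoi2 roots gave none: 0 of the 10 were called by edgeR, 0 by DESeq2, and 2 (LOC_Os12g19470 and LOC_Os12g17600) had an unadjusted p under 0.05. LOC_Os12g17600 had only about 4 read pairs under mock and 0 after JA in oscoi2, too few to show a response. In oscoi2 1.47% of all genes were called lower. The median log2FC of the 10 was −1.01, or −0.72 with the detection limit used in the same way, against −0.01 over all genes.

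**Figure D1:**
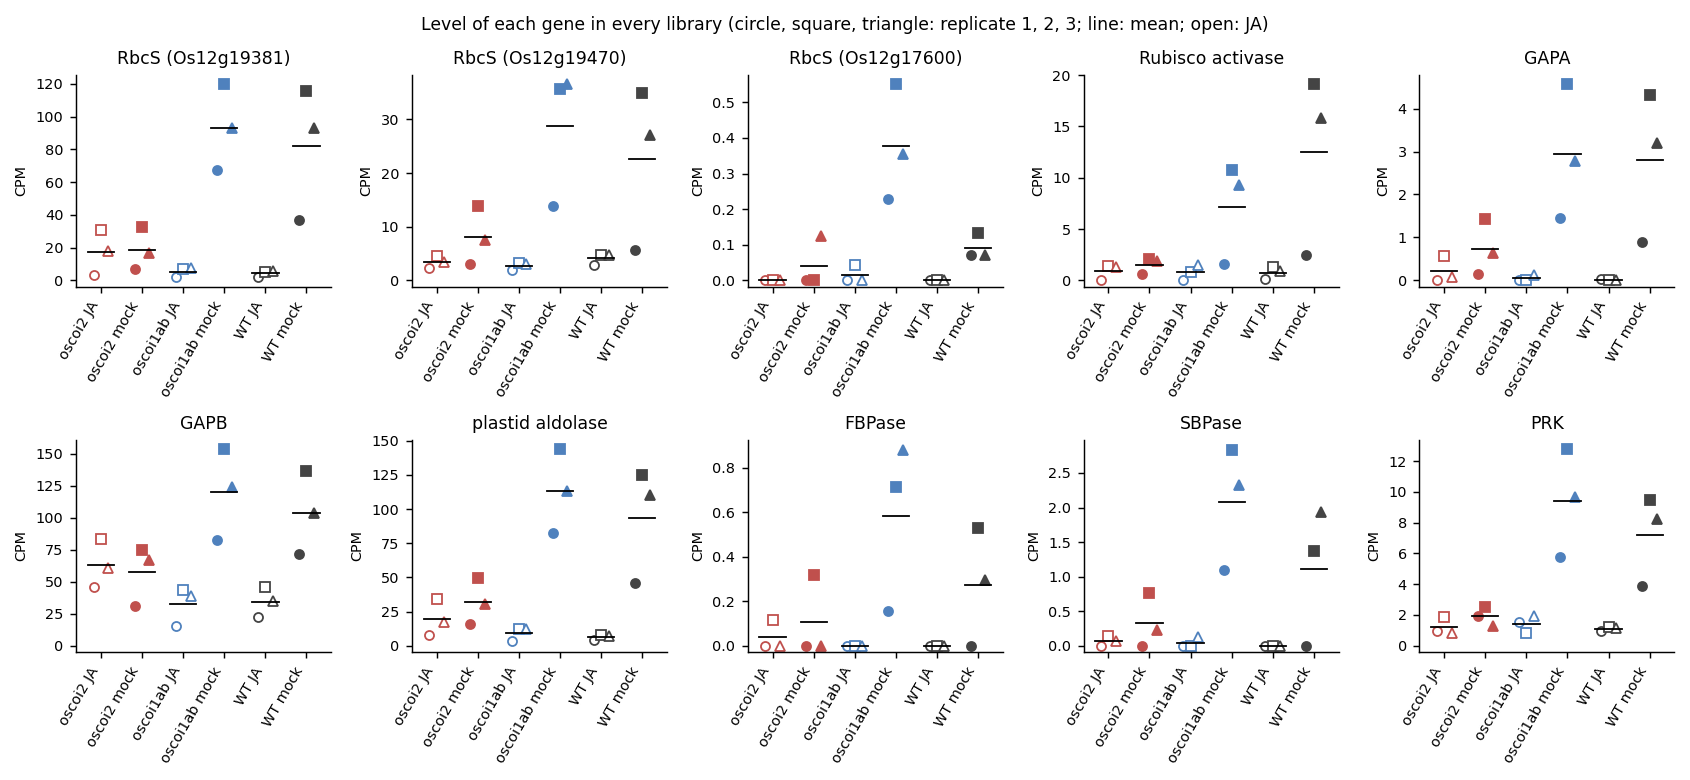
Level in CPM of each of the 10 genes in every library, 1 panel per gene with its own linear axis. Symbols mark replicate 1 (circle), 2 (square) and 3 (triangle), open for JA and filled for mock, and the black line is the mean of 3 libraries. PRK in oscoi2 mock libraries lies at 1.26 to 2.52 CPM, below the 3.86 to 9.49 CPM of WT mock libraries.

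The Rubisco small subunit is the nuclear-encoded partner of the plastid-encoded large subunit. Rice carries several RbcS genes with closely similar coding sequences, and reads that fit more than 1 copy may have been divided among them, so the split between the 3 loci is uncertain. LOC_Os12g19381 (Os12g0291100) stood at 2.10, 5.10 and 5.85 CPM in WT libraries after JA, against 37.1, 115 and 93.1 CPM under mock. The groups are far apart, and the JA mean was 5.31% of the mock mean (log2FC −4.24, SE 0.78, edgeR FDR = 4.7e-04).

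In oscoi1ab libraries the same gene stood at 2.02, 6.63 and 7.35 CPM after JA, against 67.1, 120 and 92.7 CPM under mock (log2FC −4.13, SE 0.78, edgeR FDR = 5.1e-04). The oscoi1ab libraries thus covered nearly the same range as WT in each treatment. In oscoi2 libraries it stood at 3.03, 30.5 and 18.01 CPM after JA, against 7.08, 32.6 and 16.5 CPM under mock. These 2 groups overlap almost fully (log2FC −0.13, SE 0.69, edgeR FDR = 0.94), and the 95% interval of the difference, from −1.47 to 1.22, does not reach the WT value.

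LOC_Os12g19470 (Os12g0292400) stood at 2.93, 4.66 and 4.72 CPM in WT libraries after JA, against 5.60, 34.9 and 27.2 CPM under mock. Mock replicate 1 lay only just above the JA libraries, and the other mock libraries well above (log2FC −2.46, SE 0.60, edgeR FDR = 0.0041). In oscoi1ab libraries it had 1.90, 3.21 and 2.98 CPM after JA, against 13.9, 35.7 and 36.6 CPM under mock (log2FC −3.41, SE 0.62, edgeR FDR = 3.9e-04). In oscoi2 libraries it had 2.24, 4.60 and 3.36 CPM after JA, against 3.12, 13.9 and 7.46 CPM under mock. All 3 oscoi2 JA libraries lay within the range of WT JA libraries or below it, but JA and mock overlapped in oscoi2 and the difference was not called (log2FC −1.26, SE 0.58, edgeR FDR = 0.15).

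LOC_Os12g17600 (Os12g0274700) was hardly counted. It was at 0 in every WT JA and every oscoi2 JA library and at most at 0.13 CPM in WT mock and oscoi2 mock libraries, near the detection limit of 0.10 CPM. Detection here means 3 read pairs, and this limit covers counting error only. The 3 oscoi1ab mock libraries were the highest, at 0.23, 0.55 and 0.35 CPM, and lay above the 0.07, 0.13 and 0.07 CPM of WT mock libraries. That difference was not called (log2FC 2.03, SE 1.60, edgeR FDR = 1), and 4.99% of all genes lay higher without overlap in this comparison. The gene also passed the filter on low counts only through the oscoi1ab mock libraries, with 138 of its 188 counts.

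Rubisco activase (LOC_Os11g47970, Os11g0707000) frees Rubisco of bound sugar phosphates that block its active site. It stood at 0.083, 1.29 and 0.92 CPM in WT libraries after JA, against 2.46, 19.1 and 15.9 CPM under mock. The groups did not overlap and the JA mean was 6.11% of the mock mean, yet the replicate spread was wide and the gene was not called (log2FC −4.03, SE 1.30, edgeR FDR = 0.023). With the replicate number as a block shared by all 18 libraries, it was called in WT (log2FC −4.20, edgeR FDR = 1.2e-04).

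In oscoi1ab libraries activase had 0, 0.80 and 1.52 CPM after JA, against 1.57, 10.7 and 9.28 CPM under mock (log2FC −3.22, SE 1.26, edgeR FDR = 0.055), and without the libraries numbered 1 it was called (log2FC −3.11, edgeR FDR = 6.6e-05). In oscoi2 libraries it had 0.039, 1.40 and 1.29 CPM after JA, against 0.59, 2.09 and 1.92 CPM under mock (log2FC −0.75, SE 1.18, edgeR FDR = 0.73). Activase was thus low in oscoi2 under both treatments, and in each group replicate 1 was the lowest library.

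Glyceraldehyde-phosphate dehydrogenase of the plastid is built from A and B subunits and carries out the reductive step of the cycle. GAPB (LOC_Os03g03720, Os03g0129300) stood at 22.8, 45.8 and 34.7 CPM in WT libraries after JA, against 71.6, 137 and 104 CPM under mock. The decrease was the smallest of the called genes, with a JA mean at 33.0% of the mock mean (log2FC −1.60, SE 0.41, edgeR FDR = 0.0057). In oscoi1ab libraries GAPB had 15.4, 43.8 and 38.6 CPM after JA, against 82.4, 154 and 124 CPM under mock (log2FC −1.88, SE 0.41, edgeR FDR = 0.0017).

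In oscoi2 libraries GAPB had 45.7, 83.8 and 60.9 CPM after JA, against 31.1, 74.7 and 67.2 CPM under mock. The JA mean was 110% of the mock mean and the groups overlapped (log2FC 0.14, SE 0.40, edgeR FDR = 0.87). The 95% interval of the difference ran from −0.64 to 0.92, so a small change in either direction remains possible. GAPB was the only 1 of the 10 genes with a positive log2FC after JA in oscoi2, and with scaling by library size only the value was −0.016.

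GAPA (LOC_Os04g38600, Os04g0459500) all but disappeared after JA in WT and oscoi1ab roots. It had 0.041, 0 and 0 CPM in WT libraries after JA, against 0.89, 4.33 and 3.19 CPM under mock. About 1 read pair was left in WT after JA, against 256 under mock, a level of 0.47% of mock with a 95% counting interval of 0.012 to 2.64% (fitted log2FC −7.52, SE 1.73, edgeR FDR = 0.0027). In oscoi1ab libraries it had 0, 0 and 0.13 CPM after JA, against 1.45, 4.57 and 2.78 CPM under mock, or 1.37% of mock with a counting interval of 0.28 to 4.05% (edgeR FDR = 0.0054).

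In oscoi2 libraries GAPA had 0, 0.56 and 0.079 CPM after JA, against 0.14, 1.42 and 0.64 CPM under mock. The JA mean was 29.0% of the mock mean, with overlap (log2FC −1.78, SE 1.26, edgeR FDR = 0.38). The fold of GAPA in WT and oscoi1ab was thus larger than that of GAPB in the same libraries, though the difference between the 2 genes was not tested. Levels of GAPA and GAPB are not compared, as the values are not per length.

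The plastid aldolase (LOC_Os11g07020, Os11g0171300) joins triose phosphates in the regeneration phase. It stood at 3.80, 7.51 and 6.87 CPM in WT libraries after JA, against 46.0, 125 and 110 CPM under mock. The JA mean was 6.47% of the mock mean (log2FC −3.95, SE 0.62, edgeR FDR = 1.1e-04). In oscoi1ab libraries it had 3.51, 12.4 and 12.4 CPM after JA, against 82.3, 144 and 113 CPM under mock (log2FC −3.59, SE 0.61, edgeR FDR = 2.0e-04).

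In oscoi2 libraries the aldolase had 7.56, 34.5 and 17.4 CPM after JA, against 15.6, 49.2 and 30.2 CPM under mock. The groups overlapped and the difference was not called (log2FC −0.68, SE 0.55, edgeR FDR = 0.46). The JA mean was 62.5% of the mock mean in oscoi2, against 8.32% in oscoi1ab and 6.47% in WT.

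FBPase and SBPase remove a phosphate from fructose and sedoheptulose bisphosphate, steps that cannot run backwards and that light activates in leaves. FBPase stayed under 1 CPM in every library, and SBPase was near the detection limit after JA. SBPase (LOC_Os04g16680, Os04g0234600) was at 0 in all 3 WT libraries after JA, against 0, 1.37 and 1.94 CPM under mock, at least 10.7-fold lower by the detection limit but not called (edgeR FDR = 0.016). In oscoi1ab libraries it had 0, 0 and 0.13 CPM after JA, against 1.09, 2.84 and 2.32 CPM under mock (edgeR FDR = 0.043), and in oscoi2 libraries 0, 0.14 and 0.070 CPM after JA, against 0, 0.76 and 0.23 CPM under mock (edgeR FDR = 0.45).

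FBPase (LOC_Os03g16050, Os03g0267300) was at 0 in all WT and all oscoi1ab libraries after JA. Under mock it had 0, 0.53 and 0.30 CPM in WT and 0.16, 0.71 and 0.88 CPM in oscoi1ab, so that JA levels were at least 2.66-fold lower in WT (edgeR FDR = 0.068) and at least 5.67-fold lower in oscoi1ab (edgeR FDR = 0.042). In oscoi2 libraries it had 0, 0.11 and 0 CPM after JA, against 0, 0.32 and 0 CPM under mock, about 3 against 10 read pairs. The depth cannot show a difference there.

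PRK (LOC_Os02g47020, Os02g0698000) phosphorylates ribulose phosphate and so remakes the acceptor of carbon dioxide. It stood at 0.96, 1.18 and 1.14 CPM in WT libraries after JA, against 3.86, 9.49 and 8.25 CPM under mock. The JA libraries were close to each other, and the JA mean was 15.2% of the mock mean (log2FC −2.72, SE 0.43, edgeR FDR = 1.3e-04). In oscoi1ab libraries it had 1.53, 0.82 and 1.91 CPM after JA, against 5.74, 12.8 and 9.69 CPM under mock, with a JA mean at 15.1% of mock (log2FC −2.72, SE 0.43, edgeR FDR = 1.1e-04).

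In oscoi2 libraries PRK had 0.94, 1.84 and 0.84 CPM after JA, against 1.91, 2.52 and 1.26 CPM under mock. The groups overlapped (log2FC −0.65, SE 0.41, edgeR FDR = 0.32). Every oscoi2 library, at 2.52 CPM or less, lay below the mock libraries of WT and oscoi1ab, at 3.86 CPM or more. PRK was called in WT and in oscoi1ab under every one of the 30 other settings with the same limits, and none of those settings called it in oscoi2.

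**Figure D2:**
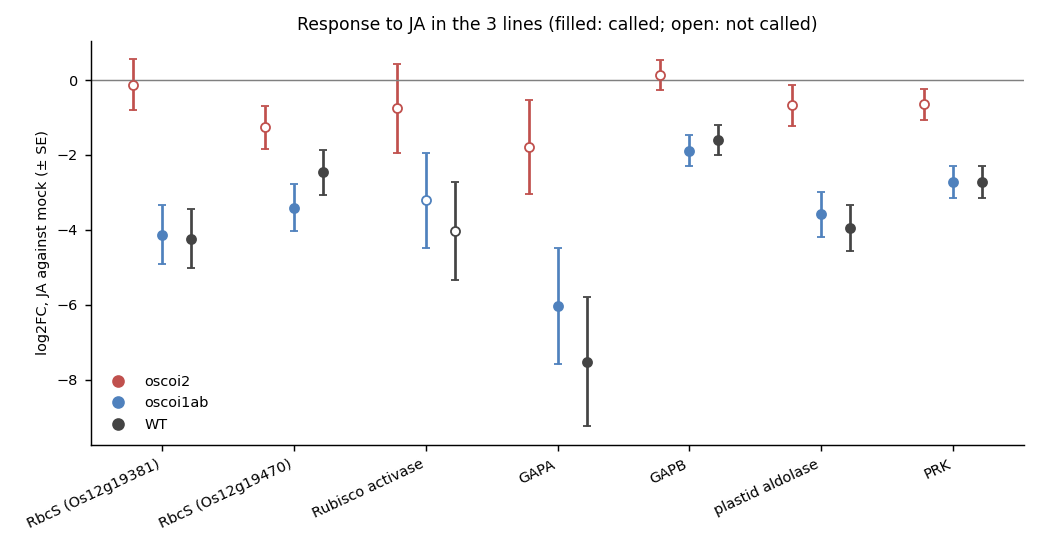
Log2FC of JA against mock with its standard error in oscoi2 (red), oscoi1ab (blue) and WT (grey) for the 7 genes with a mean of at least 1 CPM over the libraries. Filled points are called and open points are not. PRK has −0.65 in oscoi2, −2.72 in oscoi1ab and −2.72 in WT.

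By counts of libraries that separate, 8 of the 10 genes were lower after JA without overlap in WT, where 24.8% of all genes were. In oscoi1ab all 10 were, where 26.5% of all genes were, and in oscoi2 0 of the 10 were, where 16.7% of all genes were. LOC_Os12g17600 and FBPase reached the filter limit of 180 counts only through the oscoi1ab mock libraries, which held 138 of 188 and 215 of 357 counts. Their separation in oscoi1ab is thus partly built in by the filter. Single libraries decided part of the calls. With WT JA replicate 3 left out, only PRK, LOC_Os12g19381 and the aldolase were called in WT, and these 3 were called in WT and in oscoi1ab whichever single library was left out. Without all 6 libraries numbered 2 only 2 genes were called in WT and 3 in oscoi1ab, and without those numbered 3 only PRK in each. Calls over the whole table fell too. With all libraries, 2029 genes were called lower and 2313 higher in WT, and 2518 lower and 2311 higher in oscoi1ab. In both directions together, 3276 were called in WT and 3763 in oscoi1ab without the libraries numbered 2, and 2722 and 3462 without those numbered 3. Without WT JA replicate 3, 3556 were called in WT.

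Replicate 1 was the lowest of its group in much of the set. Under mock this held for all 10 genes in WT and in oscoi1ab and for 7 of 10 in oscoi2, with ties at 0 not counted, where it held for 35.4%, 37.5% and 35.2% of all genes. In WT under mock the mean of replicates 2 and 3 was 2.68 times replicate 1 in the median of the 8 genes counted there, against 1.00 times over all genes. The source of that spread was not tested. After the group means were taken out, the 7 genes with a mean of at least 1 CPM still moved together across the 18 libraries, with r from 0.35 (PRK and GAPB) to 0.97 (LOC_Os12g19381 and the aldolase) and a median of 0.74 over 21 pairs. These points share libraries and lines, and no test was made of them.

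Numbers paired the WT libraries over all genes, and the ratio within a number was steadier than the levels for part of the set. GAPB mock levels were 3.14, 2.990 and 2.999 times the JA level of the same number, although the mock level itself ran from 71.6 to 137 CPM. For the aldolase the ratios were 12.1, 16.6 and 16.0 and for LOC_Os12g19381 17.7, 22.7 and 15.9. The ratios were less steady for PRK, at 4.02, 8.03 and 7.24, for activase, at 29.8, 14.8 and 17.3, and for LOC_Os12g19470, at 1.91, 7.49 and 5.76. With the number as a block, 8 of the 10 genes were called in WT, the added 2 being activase and SBPase (edgeR FDR = 0.0098). In that setting 4472 genes of the whole table were called in WT in either direction.

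**Figure D3:**
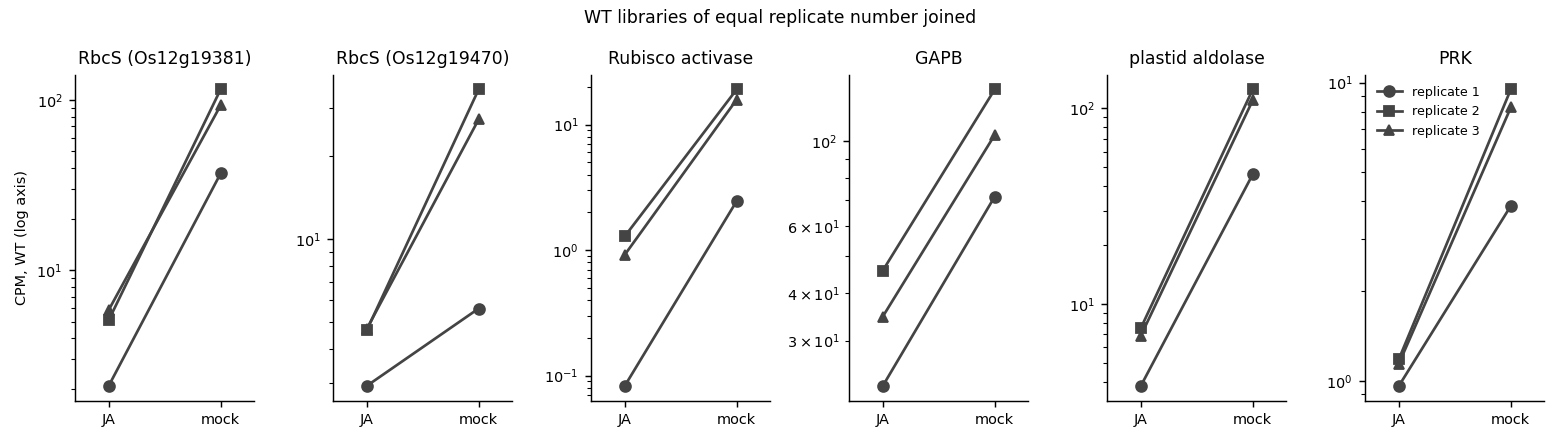
CPM of 6 genes in WT libraries after JA (left) and under mock (right) on a log axis, with libraries of equal replicate number joined. The GAPB lines are nearly parallel, with mock to JA ratios of 3.14, 2.990 and 2.999, and the LOC_Os12g19470 line of replicate 1 is the flattest, at 1.91.

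The next comparison asks whether the receptor edits alone changed these genes. Under mock, no difference between oscoi1ab and WT plants was detected in these genes: 0 of 10 genes were called by edgeR and 0 by DESeq2, none had an unadjusted p under 0.05, and 0.162% of all genes were called. The log2FC values ran from −0.79 for activase to 2.03 for LOC_Os12g17600. For the better counted genes the 95% intervals of the difference were −0.40 to 1.17 for PRK, −0.57 to 0.99 for GAPB and −0.80 to 1.34 for the aldolase. The numbers pair these libraries, and within a number the oscoi1ab level was 0.638, 0.561 and 0.585 times the WT level for activase, 1.49, 1.35 and 1.17 times for PRK and 1.15, 1.13 and 1.19 times for GAPB, in 1 direction for each gene. With the number as a block, none of the 10 was called (edgeR FDR = 1 for each).

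Under mock, oscoi2 plants had lower means than WT plants for all 10 genes, but 0 of 10 were called, where 0.155% of all genes were called lower. The median log2FC was −1.65 against 0.02 over all genes, and 6 of the 10 had an unadjusted p under 0.05. PRK came nearest to the limit, at 1.90 ± 0.63 CPM in oscoi2 against 7.20 ± 2.96 CPM in WT (SD, n = 3 each; log2FC −1.92, SE 0.42, edgeR FDR = 0.016). DESeq2 and edgeR's likelihood ratio test each called PRK alone, with 399 and 392 genes of the whole table called, against 116 in the main test. The quasi-likelihood test called activase alone without the libraries numbered 1, with 26 genes of the whole table called.

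LOC_Os12g19381 averaged 18.8 ± 12.9 CPM in oscoi2 mock and 81.9 ± 40.4 CPM in WT mock libraries (SD, n = 3 each; log2FC −2.13, SE 0.71, edgeR FDR = 0.084). The aldolase averaged 31.7 ± 16.8 CPM in oscoi2 mock and 93.7 ± 42.002 CPM in WT mock libraries (log2FC −1.56, SE 0.56, edgeR FDR = 0.11). Activase averaged 1.53 ± 0.82 CPM in oscoi2 mock and 12.5 ± 8.82 CPM in WT mock libraries (log2FC −3.02, SE 1.23, edgeR FDR = 0.15). For PRK, activase and LOC_Os12g19381 every oscoi2 library lay below every WT library, where 12.3% of all genes did so.

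After JA the order turned for several genes. The aldolase averaged 19.8 ± 13.6 CPM in oscoi2 and 6.06 ± 1.98 CPM in WT libraries (log2FC 1.71, SE 0.57, edgeR FDR = 0.053), and LOC_Os12g19381 17.2 ± 13.8 CPM in oscoi2 and 4.35 ± 1.98 CPM in WT libraries (log2FC 1.98, SE 0.72, edgeR FDR = 0.073). GAPB averaged 63.5 ± 19.2 CPM in oscoi2 and 34.4 ± 11.5 CPM in WT libraries (log2FC 0.88, SE 0.40, edgeR FDR = 0.16). PRK stood at 1.21 ± 0.55 CPM in oscoi2 and 1.09 ± 0.12 CPM in WT libraries, with a log2FC of 0.14 and a 95% interval from −0.68 to 0.96. None of the 10 was called after JA, where 3.92% of all genes were, and 4 had an unadjusted p under 0.05. DESeq2 also called none. Without the libraries numbered 1 LOC_Os12g19381 and the aldolase were called, with 1053 genes of the whole table called, against 1213 with all libraries.

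**Figure D4:**
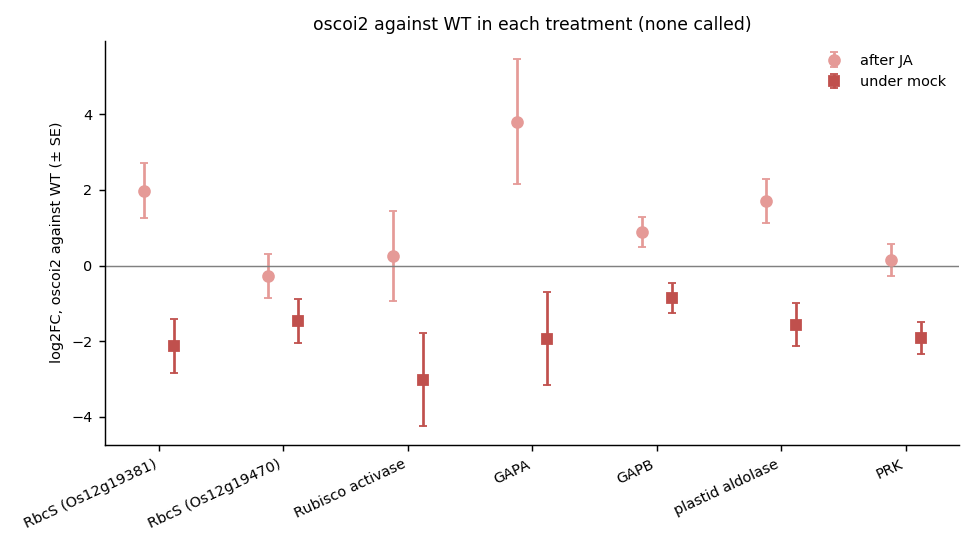
Log2FC of oscoi2 against WT with its standard error, after JA (circles) and under mock (squares), for 7 genes, none of them called. All 7 lie below 0 under mock, and LOC_Os12g19381 (1.98) and the aldolase (1.71) lie above 0 after JA.

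In oscoi1ab after JA, 0 of 10 genes were called against WT by edgeR and 0 by DESeq2, none had an unadjusted p under 0.05, and 0.162% of all genes were called. PRK averaged 1.42 ± 0.55 CPM in oscoi1ab and 1.09 ± 0.12 CPM in WT libraries, and GAPB 32.6 ± 15.1 CPM in oscoi1ab and 34.4 ± 11.5 CPM in WT libraries.

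Whether the response to JA itself differed between lines was tested by interaction contrasts, which compare log2FC between lines and share the WT or oscoi1ab libraries with the comparisons above. Between oscoi2 and WT, 0 of 10 genes reached the limit, where 2.94% of all genes did. All 10 fitted differences were positive, but not all can be read. LOC_Os12g17600 was at 0 after JA in both lines. FBPase and SBPase were at 0 in every WT JA library and under the detection limit on average in oscoi2 after JA. Their differences thus rest on that limit and not on a measured fold. In this contrast 3 genes passed an FDR limit of 0.05 with the same fold limit, as did 5.24% of all genes: the aldolase (difference 3.27, SE 0.80, edgeR FDR = 0.016), LOC_Os12g19381 (4.11, SE 1.01, edgeR FDR = 0.017) and PRK (2.07, SE 0.59, edgeR FDR = 0.036). DESeq2 called these 3, with 1533 genes of the whole table called, against 908 in the main test. The likelihood ratio test of edgeR called the aldolase and LOC_Os12g19381 (1493 in all). The quasi-likelihood test called these 2 without oscoi2 JA replicate 1 (904 in all) and the aldolase alone without oscoi1ab JA replicate 1 (930 in all). Without the libraries numbered 1 it called the aldolase, LOC_Os12g19381 and activase (545 in all). GAPB followed (1.74, SE 0.57, edgeR FDR = 0.067), and LOC_Os12g19470 had the smallest difference among the well counted genes (1.19, SE 0.81, edgeR FDR = 0.42).

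Between oscoi2 and oscoi1ab, again 0 of 10 genes reached the limit, where 3.37% of all genes did, and 4 passed an FDR limit of 0.05 with the same fold limit, as did 5.94% of all genes. Without oscoi2 JA replicate 1 LOC_Os12g19381 was called (1051 genes of the whole table called, against 1042 with all libraries). Without the libraries numbered 1 the aldolase, GAPB and activase were called as well (412 in all). The 4 were LOC_Os12g19381 (difference 4.001, SE 1.01, edgeR FDR = 0.017), the aldolase (2.91, SE 0.79, edgeR FDR = 0.028), GAPB (2.02, SE 0.57, edgeR FDR = 0.032) and PRK (2.07, SE 0.59, edgeR FDR = 0.032). DESeq2 and edgeR's likelihood ratio test each called these 4, with 1711 and 1656 genes of the whole table called. Between oscoi1ab and WT no gene of the whole table was called (0%), and the differences were −0.01 for PRK, −0.29 for GAPB and 0.36 for the aldolase (SE 0.60, 0.56 and 0.78). At an FDR of 0.01 the difference of response between oscoi2 and the other lines thus depended on the test, with no gene of the set called by the quasi-likelihood test on all libraries.

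The order of the 6 groups by mean was alike for most genes. The oscoi1ab mock group was highest for 9 of the 10 genes and WT mock for activase, and oscoi2 mock came next below these 2 groups for all but GAPB, where oscoi2 JA did. For LOC_Os12g17600 and FBPase the top place of oscoi1ab mock in the order is partly built in by the filter. Neighbours in that order mostly overlapped. The exceptions were WT mock and oscoi2 mock for PRK and for LOC_Os12g19381, and oscoi1ab mock and WT mock for LOC_Os12g17600, which did not overlap.

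Other genes of the pathway were called in both directions or not at all. A list of 11 further identifiers for cycle enzymes and their regulators, of which 10 were counted and which was drawn up from general knowledge, had 1 gene called lower and 1 higher in WT after JA, with a median log2FC of −0.20, where 6.56% of all genes were called lower and 7.48% higher. In oscoi1ab 2 were called lower and 1 higher, where 8.15% of all genes were called lower and 7.48% higher, and in oscoi2 none was called. A single call among 10 genes is near these shares. The gene called higher in both lines was LOC_Os03g07300, listed from general knowledge as a chloroplast ribulose-phosphate epimerase. That enzyme supplies the substrate of PRK in the cycle and also serves the pentose phosphate pathway.

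This epimerase gene had 85.2, 89.5 and 109 CPM in WT libraries after JA, against 29.8, 28.9 and 33.7 CPM under mock (log2FC 1.62, SE 0.14, edgeR FDR = 2.1e-07). It had 101, 79.6 and 93.7 CPM in oscoi1ab libraries after JA, against 28.9, 33.2 and 33.3 CPM under mock, and was called (log2FC 1.52). In oscoi2 libraries it had 53.9, 57.5 and 45.7 CPM after JA, against 25.4, 34.5 and 27.6 CPM under mock, a separated but smaller difference (log2FC 0.85) under the fold limit. Its direction was opposite to that of PRK in the same libraries.

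The gene of the list called lower in both lines was LOC_Os03g19380 (Os03g0306800). It had 1.69, 3.52 and 1.98 CPM in WT libraries after JA, against 27.3, 50.7 and 37.1 CPM under mock (log2FC −3.999, SE 0.50, edgeR FDR = 1.1e-05), and 1.06, 5.85 and 4.41 CPM in oscoi1ab libraries after JA, against 39.4, 50.9 and 35.6 CPM under mock (log2FC −3.48, edgeR FDR = 3.0e-05). In oscoi2 libraries it had 10.3, 14.7 and 17.4 CPM after JA, against 12.5, 23.3 and 23.6 CPM under mock, with overlap (log2FC −0.49, edgeR FDR = 0.51). Its difference in response was called both between oscoi2 and WT (3.51, SE 0.64, edgeR FDR = 0.0027) and between oscoi2 and oscoi1ab (2.99, SE 0.63, edgeR FDR = 0.0061). Both genes of the list were singled out after their values were seen.

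A list of 10 identifiers for non-photosynthetic forms of the same enzymes had 1 gene called lower and none higher in WT after JA, with a median log2FC of −0.31, 1 lower and 1 higher in oscoi1ab (median −0.19), and none called in oscoi2 (median −0.07). A list of 10 photorespiration identifiers, the pathway that recycles the product of Rubisco's reaction with oxygen, had 4 called lower and 1 higher in WT (median −0.57), 3 lower in oscoi1ab (median −0.57) and none in oscoi2 (median −0.07). These lists too came from general knowledge, and the medians and shares called over all genes are those given above.

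The study lists 41 photosynthesis genes as lower in WT after JA in these same libraries. They are therefore no independent evidence of direction or of likeness to the set, and cannot be ranked against the lists above. Of the 41, 37 were called lower in WT after JA (median log2FC −2.99), 38 in oscoi1ab (median −2.91) and 0 in oscoi2 (median −0.35). Under mock all 41 had a lower fitted level in oscoi2 than in WT plants (median log2FC −1.18) with 0 called, where 0.375% of all genes were called in either direction.

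**Figure D5:**
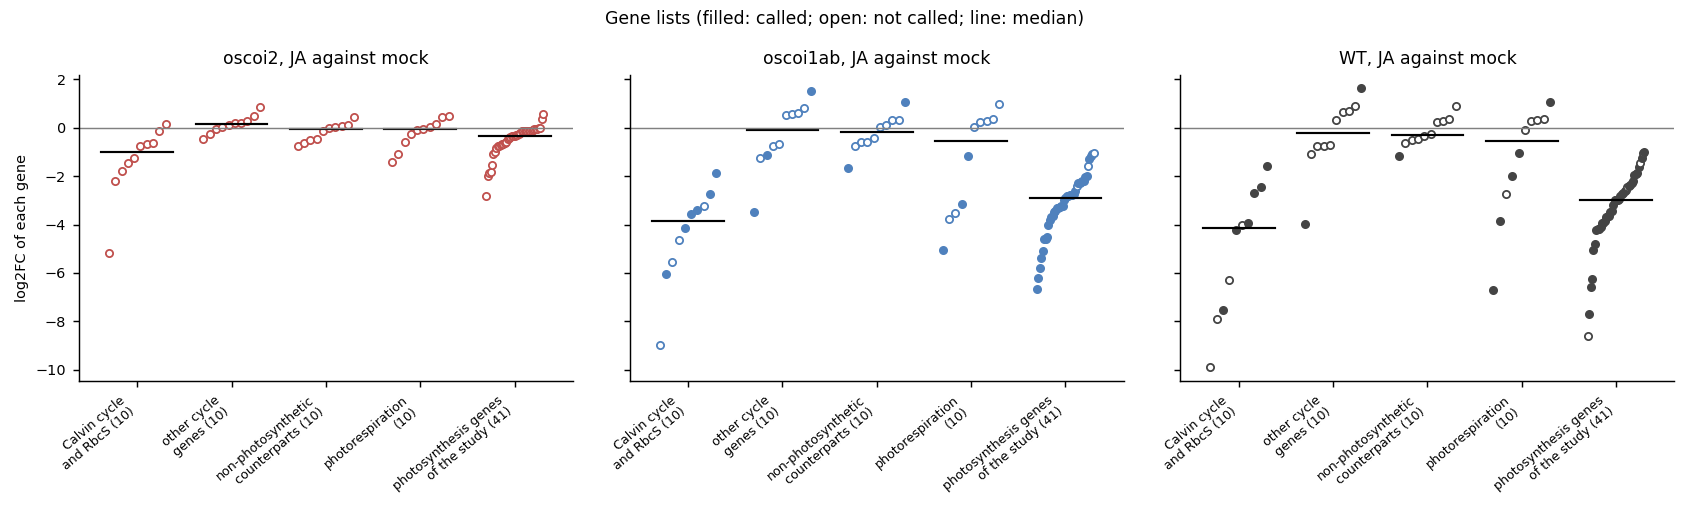
Log2FC of JA against mock for each gene of 5 lists in oscoi2, oscoi1ab and WT, filled where called, with the median as a line. The 10 genes described here and the study's photosynthesis genes sit mostly below 0 in oscoi1ab and WT, while the other lists spread on both sides of 0. The photosynthesis genes were chosen by the study on these same libraries.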

How the data were processed

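RNA of crown root tips was sequenced in 18 libraries. The authors removed adapters with CutAdapt, aligned read pairs to both the MSU7 and the RAP-DB reference with HISAT2, assembled transcripts with StringTie and derived counts with a script of their own. The deposited values are estimated counts per gene, whole numbers without normalization. Low values lay near multiples of 3.77 in 35.5% of cases, against 26.7% of whole numbers at large, a weak excess. On that basis 3.7 counts per read pair were assumed and 3 read pairs taken as the detection limit, so read-pair numbers and the limit are approximate. A count is then less than an independent read, and small counts carry less information than their size.

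edgeR 4.0.16 (R 4.3.3) was run on the 30907 genes whose counts summed to 180 or more, with TMM scaling, a single model of 6 groups, the quasi-likelihood F test and Benjamini-Hochberg FDR over all of them, for 10 comparisons. The SE of a log2FC was derived from F, and 95% intervals span 1.96 SE on each side. CPM use the TMM-scaled totals, and correlations used log2 CPM with a prior count of 2. DESeq2 1.42.0 was one of 10 alternative settings, beside the omission of each of 18 libraries and of each of 3 replicate numbers. Dividing the counts by 3.7 was added after the data were seen. Python 3.11.15 with pandas 2.3.3 and matplotlib 3.10.9 handled tables and figures. All 10 genes are named, and they and the lists were chosen with earlier results of these data known.

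Replicate numbers are shared between groups. Over 17616 genes of at least 5 CPM, deviations from the group mean correlated between libraries of equal number, at 0.337, 0.376 and 0.287 for JA and mock in WT and at 0.470, 0.315 and 0.239 for oscoi1ab and WT under mock. There the numbers were taken as pairs.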

Additional observations from a re-analysis of the deposited data

How the results depend on the processing

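Of 2170 alternative values for the 72 log2FC compared, 2150 kept their direction. That share overstates stability, as many of these alternatives could hardly turn a direction. The FDR limit of 0.05 reuses the same fit, and many omissions took a library from a group outside the comparison. In oscoi2 after JA, LOC_Os12g19381 ran from −0.84 to 0.54 with single libraries left out (positive without mock replicate 2 or JA replicate 1), FBPase from −6.52 to 5.06 (positive without mock replicate 2) and GAPB from −0.16 to 0.37 (negative without mock replicate 1 or JA replicate 2), and GAPB was −0.016 with library size only. Differences near 0 turned elsewhere with single libraries left out: between oscoi1ab and WT under mock, GAPB ran from −0.012 to 0.45 and the aldolase from −0.055 to 0.54, and between oscoi2 and WT after JA, PRK ran from −0.30 to 0.34 (−0.24 to 0.37 without libraries of 1 number). The difference in response between oscoi1ab and WT ran from −0.28 to 0.29 for PRK (−0.33 to 0.36 without libraries of 1 number, 0.048 with the replicate block) and from −0.56 to 0.053 for GAPB. The cause was not tested.

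Among counts of genes called, the WT response had 3 to 7 without a single library and 1 to 8 without all libraries of 1 number, and the oscoi1ab response 5 to 6 and 1 to 7. The WT response had 8 with the replicate block, 8 with the likelihood ratio test, 7 with DESeq2 and 5 with only the WT libraries fitted, and the oscoi1ab response had 8 with the replicate block, activase and SBPase being added (edgeR FDR = 3.4e-04 and 0.0080). Neither oscoi2 after JA nor any comparison of oscoi1ab with WT gave a call in any setting. Between oscoi2 and WT under mock, 0 became 1 with the likelihood ratio test, 1 with DESeq2, 1 at an FDR of 0.05, 2 with the replicate block (LOC_Os12g19381 and the aldolase, edgeR FDR = 0.0031 and 0.0022, with 244 genes called in all, against 116) and 0 to 1 without libraries of 1 number. After JA it became 2 with the replicate block (1351 genes of the whole table called, against 1213) and 0 to 2 without libraries of 1 number.

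The difference in response between oscoi2 and WT had 2 genes called with the likelihood ratio test, 3 with DESeq2, 3 with the replicate block, 3 at an FDR of 0.05, 2 without a filter and 0 to 3 with libraries left out. Between oscoi2 and oscoi1ab it had 4 with each of the likelihood ratio test, DESeq2, the replicate block and an FDR of 0.05, and 0 to 4 with libraries left out. These settings also called more genes of the whole table. With the replicate block 1101 were called between oscoi2 and WT, against 908 in the main test, and 1281 between oscoi2 and oscoi1ab, against 1042. The replicate block is a hint only in the comparisons whose numbers do not all pair: r of equal numbers was as low as 0.055 in the oscoi1ab response, 0.091 in the oscoi2 response, −0.091 between oscoi2 and WT under mock, 0.085 between oscoi1ab and WT after JA and −0.19 between oscoi2 and WT after JA.

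Scaling by library size only moved the median of all genes to −0.39 in the responses of WT and oscoi1ab and to −0.16 in that of oscoi2, and the same 6 genes stayed called in WT and oscoi1ab. Few read pairs limit GAPA, SBPase, FBPase and LOC_Os12g17600 after JA, and their fitted log2FC depend on the prior count. RbcS loci may share reads.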

Other observations

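Genes outside the set were ranked by likeness to the pattern of the 10 genes over the libraries, and the 10 themselves were left out of the ranking. The pattern was the mean of the standardized log2 CPM of the 10 over 18 libraries. Among 23814 other genes of at least 1 CPM, the highest Pearson r was 0.98 for LOC_Os09g36040. LOC_Os04g23890, LOC_Os03g52360 and LOC_Os07g28610 followed at 0.97 to 0.98. Of the 10 genes most alike, 4 belong to the photosynthesis list of the study: OsPsbX-2 (r = 0.97) of photosystem II, OsPsaL (r = 0.97) of photosystem I, and the light-harvesting genes OsLhca3 (r = 0.97) and OsLhcb6 (r = 0.97). Of 40 genes of that list with enough counts, 17 were among the 100 most alike, with a median r of 0.91 over the 40 against −0.0006 over all genes compared. The study chose that list on these same libraries, so its likeness to the set is no independent evidence. The libraries share lines, treatments and the low replicate 1, so these values describe the libraries and were not tested.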
